A study of Mus musculus with 21 samples.

Results

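Genes of the enzymes that cut and crosslink the extracellular matrix, and of their inhibitors, were followed in whole livers of mice that lacked the transcription factor Gata4 in liver sinusoidal endothelium. The genes were those whose platform symbol begins with Mmp and a digit or with Adamts, or is Timp1 to Timp4, Lox, Loxl1 to Loxl4 or Adam8 to Adam19, which gave 63 of the 25428 genes measured. They comprised 17 secreted and other matrix metalloproteinases, 5 membrane-type ones, 4 tissue inhibitors, 5 lysyl oxidases, 9 ADAM genes, 18 ADAMTS genes and 5 ADAMTS-like genes. The knockout livers (Gata4-LSEC-KO, 10 mice) came from a cross of a Clec4g-icre driver line, C57BL/6N-Tg(Clec4g-icre)1.1Sgoe, with mice whose Gata4 gene was floxed (Gata4tm1.1Sad). The control livers (genotype label wt, 11 mice) came from siblings on the same standard diet. The labels used here do not say whether these carried the driver or the floxed allele, nor the age and sex of the mice. The knockout is described as specific to a subtype of endothelium, while the RNA came from the whole organ with all its cell types. Sample numbers in the descriptions formed 2 runs of consecutive values, with 4 knockout and 5 control livers in run 1 and 6 knockout and 6 control livers in run 2. Values were log2 RMA signals with a median of 3.75 on each array.

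Matrix metalloproteinases cut collagens, laminins and proteoglycans, and the tissue inhibitors of metalloproteinases (Timps) block their zinc-containing active site. ADAM proteins are membrane-anchored metalloproteases that shed growth factors, cytokines and receptors from cell surfaces, and ADAMTS proteins are secreted relatives that process procollagens, proteoglycans and von Willebrand factor. ADAMTS-like proteins carry the ancillary domains without the protease domain, and lysyl oxidases crosslink collagen and elastin fibres. In liver these genes are known for their part in the building and resorption of scar matrix by stellate cells, macrophages, neutrophils and endothelium.

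The question was whether knockout livers differed from control livers in this protease system. Of the 63 genes, 4 were higher, none was lower, and 59 did not pass the test (limma with genotype and run as terms, Benjamini-Hochberg adjusted p under 0.05 over all genes). Over the whole array 7.33% of genes were called, 3.28% higher and 4.05% lower. Of the 63 genes 6.35% were called, all of them higher, so the share called in either direction was near the background. At an unadjusted p under 0.05, 14 were higher and 6 lower, where 9.41% of all genes were higher and 13% lower. The genes called were Timp3, an inhibitor; Adamtsl2, an ADAMTS-like matrix protein; Adamts9, a proteoglycan-cleaving protease; and Loxl1, a crosslinking enzyme. The median difference over the 63 was 0.024, against -0.013 over all genes, on the log2 scale, and 35 of 63 were above 0. No difference reached 1 on the log2 scale. In none of the 63 did the genotypes fail to overlap, where 0.13% of all genes had groups that did not overlap. In 6 genes all 10 knockout livers lay above the control mean of their run, namely the 4 called genes, Mmp2 and Mmp9. In none did all 10 lie below it. The same count was not made over all genes, so these 6 cannot be set against a background. The differences and their 95% intervals stayed within 0.5 of zero for 49 of the 59 uncalled genes. Of these 59, 35 had control means at or below the array median, where a narrow interval may reflect low signal. The share over all genes was not counted.

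**Figure D1:**
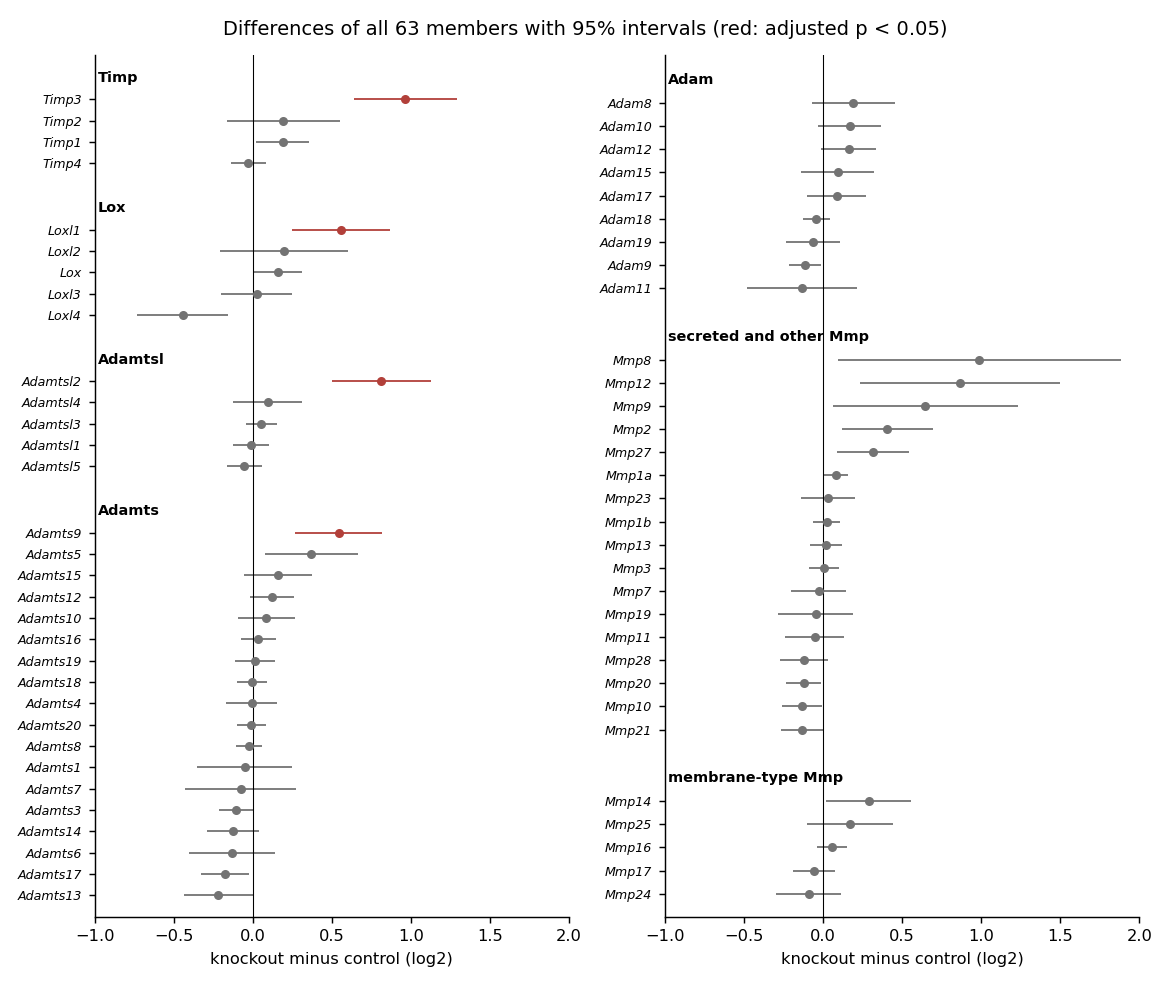
Difference between knockout and control livers (log2, horizontal axis) for each of the 63 genes, grouped by family, with 95% intervals from the fit over 10 knockout and 11 control livers. Red marks the 4 genes called higher (Timp3, Loxl1, Adamtsl2 and Adamts9), and the widest intervals belong to Mmp8, Mmp12 and Mmp9.

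Timp3, the inhibitor that is bound to the matrix and also blocks ADAM17, had the lowest adjusted p of the family and of the 63 genes. Its log2 signal ran from 6.78 through a median of 7.42 to 8.03 in knockout livers, and from 5.80 through 6.61 to 6.98 in control livers. Of the 10 knockout livers, 9 lay above all controls, and replicate 6, at 6.78, lay inside the control range. Timp3 was 1.95-fold higher, a difference of 0.97 ± 0.16 on the log2 scale (SE; adjusted p = 0.0015). Within runs the differences were close, at 0.98 for run 1 livers and 0.96 for run 2 livers. In run 1 the genotypes did not overlap, with 7.14 to 7.88 in knockout livers and 5.89 to 6.85 in controls. Whole-liver RNA does not tell more cells of a type from more transcript per cell, and this holds for each difference given here. In the RefSeq annotation Timp3 lies within Syn3, a synapsin gene, which had a difference of -0.21 ± 0.10 (adjusted p = 0.24).

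The promoter of Timp3 is shown because this gene had the clearest difference among the inhibitors. The 300 bases are chr10:86300162-86300461, plus strand, of RefSeq's GRCm38.p6, and capitals mark the 50 bases from the gene start.
Timp3: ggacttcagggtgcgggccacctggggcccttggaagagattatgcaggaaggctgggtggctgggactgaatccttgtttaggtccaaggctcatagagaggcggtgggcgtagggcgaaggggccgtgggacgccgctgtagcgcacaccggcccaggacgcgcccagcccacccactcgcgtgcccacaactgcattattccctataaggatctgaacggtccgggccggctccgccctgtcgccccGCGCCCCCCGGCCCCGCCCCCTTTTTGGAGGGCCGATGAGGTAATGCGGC

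The other 3 inhibitors did not pass. Timp1, the soluble inhibitor that is induced in liver injury, had log2 signals from 2.84 through 2.91 to 3.64 in knockout livers and from 2.65 through 2.78 to 3.05 in control livers. Each of these levels was below the array median of 3.75. Its difference was 0.19 ± 0.08 (SE; adjusted p = 0.16), and it was 0.13 without knockout replicate 7, the highest liver. Timp2, which inhibits Mmp2 and takes part in its activation, averaged 6.89 ± 0.32 (SD, n = 10) in knockout livers and 6.69 ± 0.48 (SD, n = 11) in control livers, a difference of 0.19 ± 0.17 (SE; adjusted p = 0.56). The 95% interval of that difference, from -0.16 to 0.55, includes 0. Timp4 averaged 3.25 ± 0.11 and 3.28 ± 0.12 in knockout and control livers, with a difference of -0.03 ± 0.05 (SE; adjusted p = 0.83). Timp1, Timp2 and Timp4 each overlap another gene in the RefSeq annotation, and of these Syn1 (-0.33 ± 0.07, adjusted p = 0.010) and Cep295nl (-0.20 ± 0.05, adjusted p = 0.013), the partners of Timp1 and Timp2, were lower. Which strand the array reads is unknown here, so a gene and its overlapping partner may not be told apart.

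Among ADAMTS-like genes, Adamtsl2 was higher and 4 others did not pass. Adamtsl2 encodes a secreted glycoprotein that binds fibrillin and the latent TGF-beta complex. Its log2 signal ran from 5.49 through a median of 5.91 to 7.003 in knockout livers, and from 4.58 through 5.20 to 5.65 in control livers. Of the knockout livers 7 lay above all controls, and 10 of 11 controls lay below all knockout livers. Adamtsl2 was 1.76-fold higher, a difference of 0.81 ± 0.15 on the log2 scale (SE; adjusted p = 0.0037). Run 1 livers gave 0.60 and run 2 livers 0.97. Knockout replicate 7 was the highest liver. Without it the difference was 0.68, with a lower adjusted p of 7.80e-04. Adamtsl1, Adamtsl3, Adamtsl4 and Adamtsl5 had differences from -0.05 to 0.09.

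Of 18 ADAMTS proteases, Adamts9 was higher and 17 did not pass. Adamts9 cleaves versican and aggrecan. Its values differed between the runs in both genotypes, so they are given by run. In run 1 Adamts9 had log2 signals of 6.01 to 6.48 in knockout livers and 5.59 to 6.34 in control livers. In run 2 it had 5.28 to 6.29 in knockout livers and 4.60 to 5.37 in control livers. Within each run 1 or more livers overlapped with the other genotype, and all 10 knockout livers lay above the control mean of their run. With run as a term Adamts9 was 1.46-fold higher, a difference of 0.54 ± 0.13 on the log2 scale (SE; adjusted p = 0.016). Run 1 livers gave 0.25 and run 2 livers 0.76. The genotype difference was not shown to differ between runs (genotype by run term, adjusted p = 0.50). Without the run term the difference was 0.50 and did not pass (adjusted p = 0.17). In the RefSeq annotation Adamts9 overlaps other transcripts, of which A730049H05Rik (0.01 ± 0.07) and 9530026P05Rik (0.14 ± 0.08) were measured and not called.

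The promoters of Adamtsl2 and Adamts9 are shown as those of the other called genes that the RefSeq table holds, each of 300 bases with the 50 bases from the gene start in capitals. They are chr2:27079129-27079428 on the plus strand and chr6:92943485-92943784 on the minus strand, of GRCm38.p6.
Adamtsl2: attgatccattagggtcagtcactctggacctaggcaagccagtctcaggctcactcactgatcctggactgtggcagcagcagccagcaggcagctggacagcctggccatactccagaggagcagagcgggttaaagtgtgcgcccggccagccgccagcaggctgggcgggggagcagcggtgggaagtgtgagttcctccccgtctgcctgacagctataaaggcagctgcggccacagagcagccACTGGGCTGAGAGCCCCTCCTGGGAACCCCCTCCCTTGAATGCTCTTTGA
Adamts9: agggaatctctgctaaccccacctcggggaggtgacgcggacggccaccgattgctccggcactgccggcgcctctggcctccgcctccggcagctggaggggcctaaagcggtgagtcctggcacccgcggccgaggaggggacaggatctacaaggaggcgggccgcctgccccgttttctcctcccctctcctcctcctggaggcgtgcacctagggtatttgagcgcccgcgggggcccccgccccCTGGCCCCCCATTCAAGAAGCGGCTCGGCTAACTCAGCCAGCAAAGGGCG

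Other ADAMTS proteases showed smaller differences. Adamts5, the main aggrecan-cleaving protease of mouse cartilage, had log2 signals from 3.09 through 4.04 to 4.71 in knockout livers, and from 3.36 through 3.61 to 3.97 in control livers. Of the knockout livers 5 lay above all controls and 1, replicate 2, below all of them. The difference was 0.37 ± 0.14 (SE; adjusted p = 0.11), and without replicate 2 it was 0.48 and passed (adjusted p = 0.018). Adamts13, the von Willebrand factor protease that stellate cells make in liver, had a difference of -0.22 ± 0.10 (adjusted p = 0.22). It was the most negative of the family, with 4.60 ± 0.29 (SD, n = 10) in knockout livers and 4.81 ± 0.26 (SD, n = 11) in control livers. Adamts1, another versican-cleaving protease, averaged 5.51 ± 0.30 in knockout livers and 5.57 ± 0.41 in control livers, with a difference of -0.05 ± 0.14 (adjusted p = 0.89). Adamts3 and Adamts14, which process procollagens, had differences of -0.10 and -0.13 and did not pass.

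Of the 5 lysyl oxidases, Loxl1 was higher, and Loxl4 had a difference of the opposite sign that missed the threshold. Loxl1 crosslinks tropoelastin in elastic fibres. Its log2 signal ran from 3.49 through a median of 3.89 to 4.95 in knockout livers, and from 3.13 through 3.31 to 4.10 in control livers. Above all controls lay 2 knockout livers, and control replicate 3, at 4.10, was the highest control. Of the 11 controls 7 lay below all knockout livers. Loxl1 was 1.47-fold higher, a difference of 0.56 ± 0.15 on the log2 scale (SE; adjusted p = 0.027). Run 1 livers gave 0.39 and run 2 livers 0.68, and neither run passed alone (adjusted p = 0.43 and 0.074). The call was lost without control replicate 8 (adjusted p = 0.053) or control replicate 9 (adjusted p = 0.05001), and without the least correlated liver of each group (adjusted p = 0.053). Its control mean, 3.44, was below the array median.

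Loxl4 ran from 3.75 through 4.08 to 4.68 in knockout livers, and from 4.09 through 4.50 to 5.28 in control livers. Of the knockout livers 5 lay below all controls, and 3 controls lay above all knockout livers. Loxl4 thus differed by -0.44 ± 0.14 on the log2 scale (SE; adjusted p = 0.056). Run 1 livers gave -0.18 and run 2 livers -0.63. Without knockout replicate 2, the highest knockout liver, Loxl4 passed (-0.52, adjusted p = 0.019), as it did without control replicate 1 (adjusted p = 0.034) or 8 (adjusted p = 0.044). Lox itself, the founding member of the family, averaged 3.09 ± 0.16 (SD, n = 10) in knockout livers and 2.93 ± 0.17 (SD, n = 11) in control livers, a difference of 0.16 ± 0.07 (SE; adjusted p = 0.19) at levels below the array median. Loxl2, which crosslinks collagen IV, had a difference of 0.63 in run 1 and -0.12 in run 2, or 0.20 ± 0.20 (adjusted p = 0.61) over all livers. The change of sign of Loxl2 between runs did not pass its own test (genotype by run, adjusted p = 0.50). Loxl3 had a difference of 0.03 ± 0.11 (adjusted p = 0.92).

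**Figure D2:**
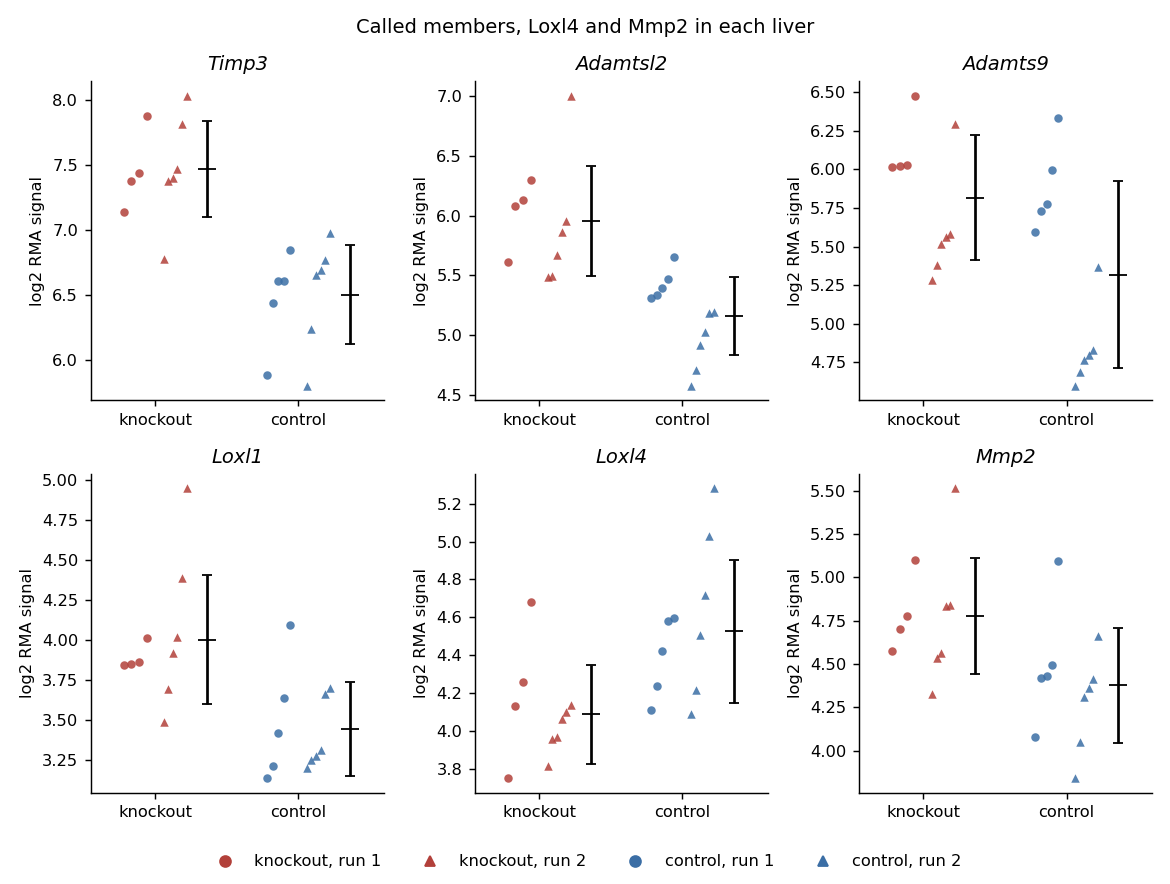
Log2 RMA signal (vertical axes, each panel on its own scale) of the 4 called genes, Loxl4 and Mmp2 in each liver. Knockout livers are on the left and control livers on the right, circles are run 1 and triangles run 2, and bars give the mean and SD over 10 knockout and 11 control livers. Timp3 separates 9 of 10 knockout livers from all controls, and Adamts9 is lower in run 2 than in run 1 in each genotype.

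None of the 17 secreted and other matrix metalloproteinases passed, with a median difference of 0.016. Mmp2, the gelatinase of stellate cells and fibroblasts, came closest. It ran from 4.33 through 4.74 to 5.51 in knockout livers, and from 3.84 through 4.41 to 5.09 in control livers, with all 10 knockout livers above the control mean of their run. Its difference was 0.41 ± 0.14 (log2, SE; adjusted p = 0.077). Control replicate 3 was the highest control, and without it Mmp2 passed (0.47, adjusted p = 0.026). Mmp12, the elastase of macrophages, had a wide spread in knockout livers. It ran from 4.30 through 5.52 to 7.05 in knockout livers, and from 3.69 through 4.70 to 5.07 in control livers. Of the knockout livers 6 lay above all controls and 4 inside their range. The difference of Mmp12 was 0.87 ± 0.30 (adjusted p = 0.087), and it passed without knockout replicate 2 (0.997, adjusted p = 0.049) or 6 (1.002, adjusted p = 0.042). Mmp27 had a difference of 0.31 ± 0.11 (adjusted p = 0.086), with mean levels below the array median in both genotypes. Mmp19, a secreted metalloproteinase, averaged 8.84 ± 0.21 (SD, n = 10) in knockout livers and 8.86 ± 0.41 (SD, n = 11) in control livers (adjusted p = 0.87).

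The neutrophil collagenase Mmp8 and the gelatinase Mmp9, which neutrophil granules store, had a wider spread in knockout than in control livers. Mmp8 ran from 3.15 through 3.50 to 7.79 in knockout livers, and from 2.89 through 3.11 to 3.46 in control livers. Its SD was 1.496 over knockout livers and 0.14 over control livers. Knockout replicate 6 had 7.79 and replicate 3 had 5.77, and the other 8 knockout livers stayed at or below 3.75. The difference of Mmp8 was 0.99 ± 0.43 (log2, SE; adjusted p = 0.17), and without replicate 6 it was 0.59 (adjusted p = 0.12). Mmp9 had an SD of 0.98 over knockout livers and 0.08 over control livers. Its values ran from 3.48 through 3.84 to 6.85 in knockout livers and from 3.37 through 3.48 to 3.61 in control livers, and 9 of 10 knockout livers lay above all controls. The difference of Mmp9 was 0.65 ± 0.28 (adjusted p = 0.17). Without replicate 6 it was smaller, 0.35, and passed (adjusted p = 0.0042).

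Markers of neutrophils were highest in the 2 livers that were highest for Mmp8 and Mmp9. The mean log2 signal of 11 neutrophil markers ran from 3.40 through 3.91 to 8.23 in knockout livers, and from 3.13 through 3.22 to 3.32 in control livers. Of those markers 1 of 11, Ngp, was called higher and none lower (9.09% called, against 7.33% of all genes). The markers differed unevenly, from 2.68 for Ngp and 1.52 for Mpo to 0.44 for Ly6g and 0.16 for Csf3r. Knockout replicates 6 and 3 had the highest marker levels, 8.23 and 5.86. The same 2 livers were the highest for Mmp25, the membrane-type protease of leukocytes, with 4.72 and 3.83 against 3.27 to 3.56 in control livers. Replicate 6 was also the highest for Adam8, a protease of leukocytes, with 4.59 against 3.32 to 3.68 in control livers. Mmp25 and Adam8 had differences of 0.17 ± 0.13 and 0.19 ± 0.13 (adjusted p = 0.48 and 0.40), and of 0.05 and 0.10 without replicate 6. Without replicates 3 and 6, Mmp8 and Mmp9 had differences of 0.32 and 0.30 and passed (adjusted p = 0.025 and 0.0059), while Mmp25 was at 0.004. That setting was added after seeing the data, and the part of neutrophil number in these values was not tested.

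**Figure D3:**
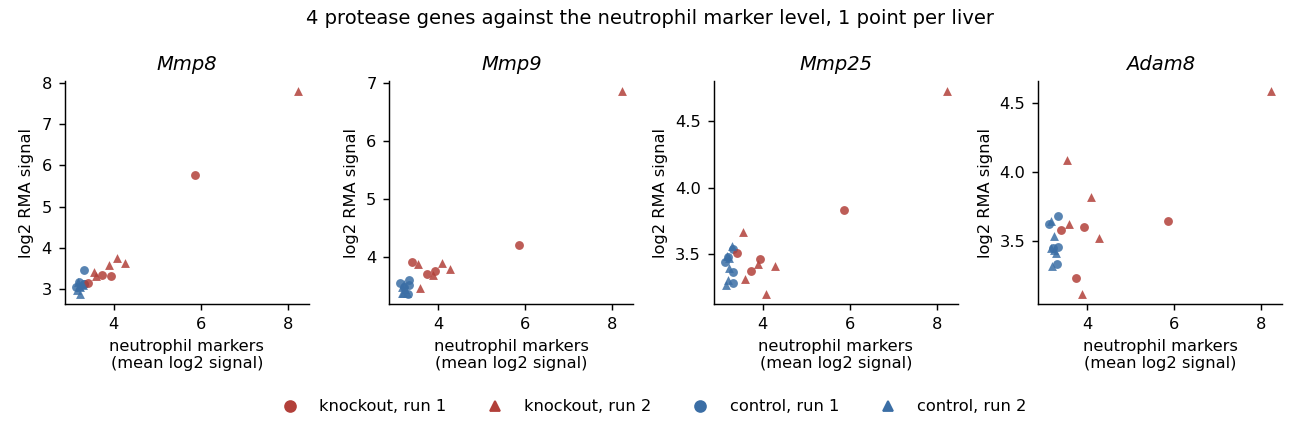
Log2 RMA signal of Mmp8, Mmp9, Mmp25 and Adam8 (vertical axes) against the mean log2 signal of 11 neutrophil markers (horizontal axes), 1 point per liver, with knockout livers in red, control livers in blue, circles for run 1 and triangles for run 2. Knockout replicate 6, at a marker level of 8.23, is the highest point for each gene, and control livers lie between 3.13 and 3.32 on the marker axis.

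Over all 63 genes, 10 had an SD more than 2 times larger in knockout than in control livers. This is 15.9% of the 63, against 5.55% of all genes on the array. The share was 22.2% of the 36 genes with control means at or below the array median. Of the 27 genes above that median it was 7.41%, near the share over all genes. The share over all genes was not split by signal level, so the 22.2% has no background of its own. The 10 were Mmp8, Mmp9, Mmp12, Mmp25, Adam8, Adam11, Adamts5, Adamts15, Adamts19 and Adamts20. Livers also differed in how often they were extreme. Knockout replicate 7 was the highest of the 10 for 18 genes, among them all 4 Timps, Adamtsl2, Loxl1, Loxl3, Mmp2 and Mmp12, and knockout replicate 6 was the highest for 10, among them Mmp8, Mmp9, Mmp25, Adam8 and Adam10. Knockout replicate 9 was the lowest for 19. How often these livers were extreme over all genes was not counted. Over the whole array, replicates 6 and 9 had the lowest correlations of the knockout livers with the rest of their group (0.987 and 0.988). Without replicate 7 the differences of Timp3 (0.90), Adamtsl2 (0.68) and Loxl1 (0.45) still passed.

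Among 5 membrane-type metalloproteinases none passed. Mmp14, which activates pro-Mmp2 and cuts fibrillar collagen at the cell surface, had log2 signals from 7.97 through 8.41 to 8.89 in knockout livers and from 7.63 through 7.98 to 8.91 in control livers. Its difference was 0.29 ± 0.13 (SE; adjusted p = 0.19), with 0.34 in run 1 and 0.25 in run 2. Control replicates 3 and 5, at 8.89 and 8.91, were as high as the highest knockout liver. Mmp16, Mmp17 and Mmp24 had differences from -0.09 to 0.06.

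None of the 9 ADAM genes in the range Adam8 to Adam19 passed, and their differences lay between -0.13 and 0.19. Adam22, Adam23, Adam28 and Adam33 were outside that range and are counted below with other proteases, where Adam23 was lower. Adam17, the sheddase of TNF that Timp3 inhibits, averaged 7.03 ± 0.13 (SD, n = 10) in knockout livers and 6.95 ± 0.25 (SD, n = 11) in control livers, a difference of 0.09 ± 0.09 (SE; adjusted p = 0.64). The 95% interval for Adam17, from -0.10 to 0.27, excludes a change of the size seen for Timp3. Adam10, the sheddase of Notch receptors, averaged 7.94 ± 0.18 in knockout livers and 7.77 ± 0.25 in control livers (0.17 ± 0.10, adjusted p = 0.32). Adam9 had the lowest p of these 9, with a difference of -0.11 ± 0.05 (adjusted p = 0.17).

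The genotype difference had the same sign in both runs for 43 of the 63 genes, and the share over all genes was not counted. No member passed the test of a genotype by run term (lowest adjusted p 0.40, for Adamts4), where 0.0315% of all genes did. All 4 called genes were positive in each run.

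**Figure D4:**
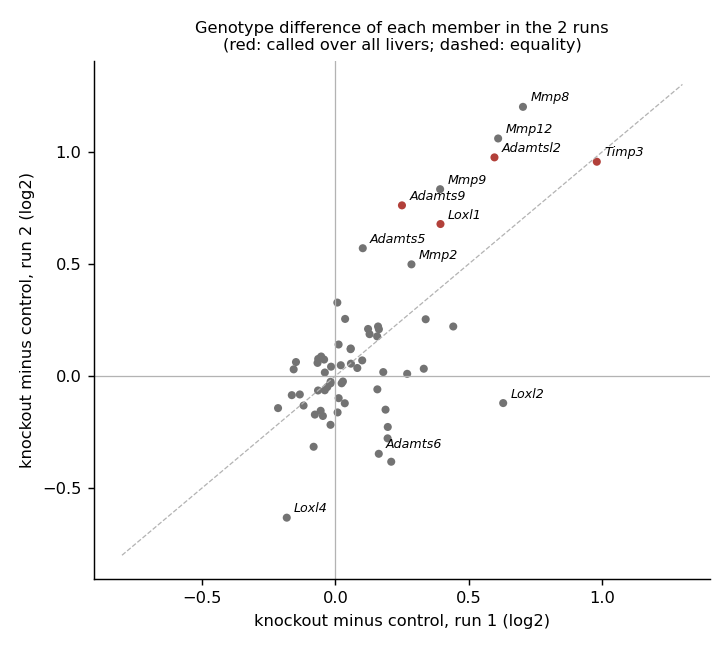
Genotype difference of each of the 63 genes (log2) in run 1 (horizontal axis, 4 knockout and 5 control livers) and in run 2 (vertical axis, 6 knockout and 6 control livers). Red marks the 4 genes called over all livers and the dashed line marks equal differences. Timp3 lies on the line at 0.98 and 0.96, and Loxl2 has 0.63 in run 1 and -0.12 in run 2.

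A cluster of 10 Mmp genes on mouse chromosome 9 holds Mmp13, Mmp12, Mmp1b, Mmp3, Mmp1a, Mmp10, Mmp8, Mmp27, Mmp20 and Mmp7 in that order in the RefSeq annotation, with no other protein-coding gene between them. None of the 10 passed, and 2 of them had control means above the array median. Within the cluster the differences ranged from -0.13 for Mmp10 to 0.99 for Mmp8. The median was 0.020. Mmp12 (0.87) and Mmp27 (0.31), which lies next to Mmp8, also had positive differences, while Mmp3 (0.005) and Mmp13 (0.016) were near 0. Mmp1a and Mmp1b are close paralogs, so their probes may share transcripts, and their values are uncertain.

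Metalloproteinase promoters are known for binding sites of AP-1, the Fos and Jun dimer, and its letters TGACTCA were searched on both strands, so that a match on the minus strand shows its reverse complement on the plus strand. Of the 63 genes 40 had a promoter in the RefSeq table, in 45 windows of 300 bases, and 8 genes held the letters (20% of genes, against 5.95% of all genes in the table). Of these 7 were in the chromosome 9 cluster and the other was Adam19. No window of Timp3, Adamtsl2 or Adamts9 held them. A stretch of 100 bases around the AP-1 letters, in capitals, is shown for 4 genes of the cluster so that Mmp12 (difference 0.87) can be set beside Mmp10, Mmp3 and Mmp13 (differences -0.13, 0.005 and 0.016). They are plus-strand sequences of GRCm38.p6, at chr9:7347300-7347399, chr9:7502249-7502348, chr9:7445746-7445845 and chr9:7272449-7272548 in the order printed.
Mmp12: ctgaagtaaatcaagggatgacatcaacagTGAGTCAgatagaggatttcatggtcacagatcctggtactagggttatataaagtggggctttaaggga
Mmp10: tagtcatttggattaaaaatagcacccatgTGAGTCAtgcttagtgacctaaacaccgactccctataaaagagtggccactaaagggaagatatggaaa
Mmp3: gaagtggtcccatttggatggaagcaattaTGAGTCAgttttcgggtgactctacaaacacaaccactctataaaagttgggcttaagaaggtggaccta
Mmp13: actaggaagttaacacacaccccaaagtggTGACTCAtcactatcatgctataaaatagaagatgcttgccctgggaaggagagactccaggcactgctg
The letters began 44, 63, 46 and 35 bases before the gene start in Mmp12, Mmp10, Mmp3 and Mmp13.

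A GATA factor core, read as AGATAA or as TGATAA on either strand, was found in 4 of the 40 genes, Adam19, Mmp24, Mmp27 and Mmp7 (10%, against 21% of all genes in the table). No window of the 3 called genes with a promoter held it, and these letters say nothing of the factor itself.

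Other genes of matrix turnover were counted in lists, and each count is read against the 3.28% of all genes that were higher and the 4.05% that were lower. Of 21 measured matrix substrates of these enzymes 8 were higher and none lower, with a median difference of 0.45 and 38.1% called. The basement membrane genes Col4a1 (0.88 ± 0.11, SE; adjusted p = 1.71e-04), Col4a2 (0.63 ± 0.08; adjusted p = 2.81e-04) and Nid1 (1.47 ± 0.25; adjusted p = 0.0019) had the lowest adjusted p. Of 23 genes that modify or process collagen and elastin, 4 were higher and 1 lower (21.7% called). P3h2, a prolyl hydroxylase of basement membrane collagen, rose by 0.45 ± 0.08, the transglutaminase Tgm2, a crosslinker outside the lysyl oxidase family, by 0.76 ± 0.15, and Fbln5, which brings Loxl1 to elastin, by 0.67 ± 0.16 (adjusted p = 0.0022, 0.0045 and 0.016). The lower gene was P4hb (-0.23 ± 0.06; adjusted p = 0.028), a disulfide isomerase and subunit of prolyl hydroxylase.

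Of 19 lysosomal cathepsins, cystatins and the legumain gene, 5 were higher and none lower (26.3% called). Ctss, the cathepsin of antigen-presenting cells, rose by 1.06 ± 0.23 (SE; adjusted p = 0.0094), Lgmn by 0.60 ± 0.12 (adjusted p = 0.0047) and Ctsa by 0.33 ± 0.08 (adjusted p = 0.011). Of 12 plasminogen system genes 1 was higher, Serpinf2, the plasmin inhibitor of hepatocytes (0.31 ± 0.07; adjusted p = 0.0080). The share called there, 8.33%, was near the 7.33% of all genes called in either direction, where 3.28% were higher. Of 20 genes listed as regulators or helpers of metalloproteases 2 were higher. They were Hpx by 0.41 ± 0.08 (adjusted p = 0.0036) and Bsg, an inducer of Mmp genes, by 0.20 ± 0.05 (adjusted p = 0.022). Hpx encodes hemopexin, a plasma heme carrier, and a part of it in metalloprotease control was not tested. Hpx and Bsg were 10% of that list, against 3.28% of all genes higher and 7.33% called in either direction. The membrane-anchored Mmp inhibitor Reck had a difference of -0.49 ± 0.15 and did not pass (adjusted p = 0.053). Of 18 proteases outside the families 3 were lower (16.7% called), Mme (-1.55 ± 0.41; adjusted p = 0.025), a membrane metallopeptidase of another family, Adam23 (-0.79 ± 0.19; adjusted p = 0.014), which has no active protease site, and Mep1b (-0.18 ± 0.05; adjusted p = 0.023), a meprin subunit. Adam23 had a difference of -1.47 in run 1 and -0.29 in run 2 (genotype by run, adjusted p = 0.13).

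**Figure D5:**
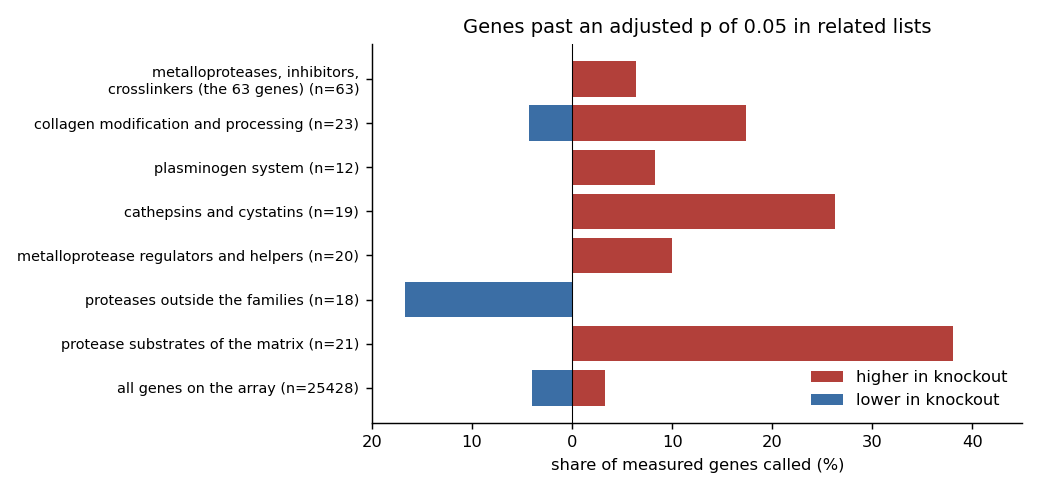
Share of measured genes (%, horizontal axis) called higher (red, to the right) or lower (blue, to the left) in knockout livers at an adjusted p under 0.05, for the 63 genes, 6 lists of related genes and all genes on the array. The 63 genes had 4 called, all higher, near the share of all genes called in either direction, and the substrate list had 8 of 21. The list labelled proteases outside the families also holds the ADAM genes Adam22, Adam23, Adam28 and Adam33.

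Marker lists of liver cell types were counted the same way, against 7.33% called over all genes, and 2 of the 13 lists had no gene called. These lists share genes with the substrate list, where the higher genes Col4a1, Dcn, Lum and Col1a1 were also counted. The mean level of 11 continuous endothelial markers ran from 5.08 to 5.82 in knockout livers and from 4.38 to 4.84 in control livers, and 8 of 11 were higher and none lower. Stellate cell markers listed as quiescent had 5 of 11 higher, namely Cygb, Pdgfrb, Rgs5, Reln and Dcn. Lrat, Des, Hgf, Ngfr, Ecm1 and Colec11 did not pass. The mean levels of that list were 7.28 to 7.78 in knockout livers against 6.74 to 7.42 in control livers. Myofibroblast markers had 3 of 11 higher, Pdgfra, Lum and Col1a1, and Acta2, Tagln, Postn and Thy1 were among those that did not pass. The counts of these lists do not tell quiescent from activated stellate cells. Myofibroblast marker levels were 5.31 to 6.01 in knockout livers against 4.57 to 6.06 in control livers, where control replicate 3 was the highest liver. Kupffer cell markers had 6 of 10 higher and levels of 6.82 to 7.87 against 5.44 to 7.67 in control livers, and monocyte and macrophage markers had 5 of 11 higher, with 4.89 to 6.63 against 4.28 to 5.14. Sinusoidal endothelial markers had 7 of 12 lower, with 6.39 to 7.12 in knockout livers and 6.73 to 7.75 in control livers. B and plasma cell markers had 5 of 9 higher, with 4.82 to 6.39 in knockout livers and 3.96 to 5.29 in control livers. Control replicate 3 also set the highest control level for continuous endothelial, Kupffer cell, monocyte and macrophage, and B and plasma cell markers. T and NK cell markers had 3 of 11 higher, megakaryocyte markers 1 of 4, and cholangiocyte and mesothelial markers none of 7 and none of 6. Hepatocyte markers had 1 of 9 lower and mean levels of 12.74 to 13.15 in knockout livers and 13.01 to 13.13 in control livers. The part of these cells in the rises of Timp3, Adamtsl2, Adamts9 and Loxl1 was not tested. Gata4 itself had a difference of -0.19 ± 0.10 (adjusted p = 0.26) in the whole organ, and Clec4g, the gene of the driver, fell by 0.92 ± 0.23 (adjusted p = 0.018).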

How the data were processed

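Whole-liver RNA of 10 knockout and 11 control mice was hybridised to Affymetrix arrays, 1 array per animal. The deposited table held log2 values that the authors made with RMA, per the submitters' processing notes; no array type, RMA version or build is named there. RMA corrects background, equalises the arrays' distributions and summarises probes, so a shift shared by all genes would be removed, and scanner files were not used here. Each of 25428 rows was 1 Entrez gene; 24705 had a symbol. Genotype was tested in limma 3.58.1 (R 4.3.3; lmFit and eBayes) with run as a term, over all rows without a filter, with Benjamini-Hochberg adjustment. A genotype by run term and fits within runs were added. All 63 genes were accounted for; those past an adjusted p of 0.05 were named in full, with all Timp and Lox genes, the lowest p or largest difference of each family, and genes with an outlying liver. On simulated arrays of 25428 genes for this comparison, 75% of changes of 0.5 and 98% of changes of 1 (log2) were recovered, and 11 unchanged genes were called. The simulated noise was normal and independent, with 1 spread per gene in both genotypes, and 100 genes were changed by each size. Genes whose spread differed between genotypes, such as Mmp8 and Mmp9, were therefore not modelled. The members and lists were chosen with earlier results of these data known. Labels call the samples biological replicates. Intervals are 95%. Same-numbered livers of the genotypes were not paired: 3 of 10 correlations of their deviations exceeded 0.1 (range -0.09 to 0.18). Alternatives were no run term, each run alone, the replicate block, a second quantile normalization, median centring, genes over the median level, an intensity trend with robust prior, array weights, each liver left out, and without the least correlated liver of each group. Figures used matplotlib 3.10.9.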

Additional observations from a re-analysis of the deposited data

Results flagged for a closer look

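Among the 63 genes, 6 had a knockout liver whose gap to the nearest other, divided by the range of the 10 livers, exceeded Dixon's 95% critical value; chance flags about 1 in 20 groups, and the 11 control livers were not tested. Knockout replicate 6 stood highest for Mmp9 (ratio 0.782; 6.85, with the next liver at 4.21) and for Mmp25 (ratio 0.585; 4.72, with the next at 3.83), and this liver also had the highest neutrophil marker level. Knockout replicate 7 stood highest for Timp1 (ratio 0.679; 3.64, with the next at 3.099), Adamtsl2 (ratio 0.468; 7.003, with the next at 6.29) and Loxl3 (ratio 0.468; 4.82, with the next at 4.34), and lowest for Adamts3 (ratio 0.498; 2.72, with the next at 2.94). Of these 6 genes Adamtsl2 alone was called, and it passed without replicate 7 too.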

How the results depend on the processing

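The call of Timp3 and that of Adamtsl2 held under 31 of 32 alternatives each, the exception being run 1 alone (adjusted p = 0.15 and 0.17), which holds 9 livers and called 2 genes higher and 1 lower on the whole array. Run 2 alone called 552 higher, and 3 of the 63 genes against 0 in run 1. The call of Adamts9 was lost without the run term (adjusted p = 0.17), in run 1 (adjusted p = 0.61) and with the replicate block (adjusted p = 0.074); that of Loxl1 under 6 alternatives. In the replicate block 4 genes were called, Mmp2 among them (0.43, adjusted p = 0.031), and the whole array had 703 higher and 714 lower. Leaving out 1 liver gave 3 to 6 higher and 0 to 1 lower of the 63, and 565 to 981 higher and 629 to 1471 lower over all genes; without control replicate 8 or 9 the lower genes numbered 629 and 661, and 670 without the 2 knockout livers highest in neutrophil markers (added after seeing the data). Among genes over the median level 1 of the 63 was lower (Loxl4, adjusted p = 0.035). No called value changed sign. Of the 59 uncalled genes 53 stayed uncalled under each alternative run for them (31 or 32 a gene, since 34 of the 63, Loxl1 among them, were not over the median level), and 6 (Mmp2, Mmp8, Mmp9, Mmp12, Adamts5 and Loxl4) were called under at least 1; the cause was not tested. Signal over background was not measured here; 36 of the 63 genes had control means at or below the array median of 3.75, with a median control SD of 0.121, against 0.270 for the 27 above it.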
